A study of Apostichopus japonicus with 9 samples.

Results

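The microRNA (miRNA) families miR-124, miR-9, miR-7 and miR-219, all known from nervous systems, were looked up among small RNAs sequenced from respiratory trees of *Apostichopus japonicus*, a sea cucumber. Members were the entries whose name carried 1 of these family numbers exactly, with any letter or arm suffix, and let-7, which is another family, was left out. The rule found 6 of 475 entries, 186 of which carried the name of a known miRNA: 2 entries of miR-124, 3 of miR-9, 1 of miR-7 and 0 of miR-219. Animals from the coast had been held in tanks for 3 days with dissolved oxygen (DO) at 8 mg/L (DO8, the normoxic control), 4 mg/L (DO4, mild hypoxia) or 2 mg/L (DO2, severe hypoxia), the latter levels being reached by bubbling nitrogen. No other treatment is described, and animals that were dead or dying were not sampled. Each group had 3 libraries, and each library was made from the mixed RNA of the respiratory trees of 3 animals, so that a library is a pool and not a single animal. The labels give neither strain, sex nor age.

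MiRNAs are cut from hairpin precursors and pair with messenger RNAs mainly through the seed, bases 2 to 8 from the 5′ end. Both arms of a hairpin can be kept, and they are named 5p and 3p after the end of the hairpin that they come from. In vertebrates, miR-124 is abundant in neurons and represses transcripts of other cell types, miR-9 acts in neural progenitors and is unusual in that both of its arms are known to be used, miR-7 is known from neurosecretory and insulin-producing cells, and miR-219 is known from the cells that make myelin. The respiratory tree is a branched tube that opens into the cloaca and is pumped full of sea water. Its wall holds epithelium, muscle and nerve fibres. In such bulk tissue, fewer cells of a type and less RNA per cell cannot be told apart.

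The sequences of the members, taken from the deposited tables in DNA letters, are shown because forms of a family differ by only a few bases at their ends, which can leave the seed as it is or shift it. Capitals mark the seed.
Aja-miR-124: tAAGGCACgcggtgaatgccaat
Aja-miR-124-3p: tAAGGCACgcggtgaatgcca
Aja-miR-9-5p: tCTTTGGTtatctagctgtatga
Aja-miR-9-3p: tAAAGCTAggttaccaaagata
Aja-miR-9: aTAAAGCTaggttaccaaag
Aja-miR-7-5p: tGGAAGACtggtgatttttt
Aja-miR-124-3p (21 nt) was the first 21 bases of Aja-miR-124 (23 nt), so the 2 entries had the same seed and differed only at the 3′ end. Aja-miR-9 (20 nt) and Aja-miR-9-3p (22 nt) shared a run of 19 bases that began at base 2 of the former and at base 1 of the latter, so that the shift by 1 base gave them different seeds. Aja-miR-9-5p (23 nt) came from the opposite arm, and in a computed duplex it paired with Aja-miR-9-3p over 16 base pairs at -22.7 kcal/mol. Aja-miR-7-5p (20 nt) ended in a run of 6 T. Apart from the miR-124 pair, no entry of the 475 shared a seed with a member, and the longest run that any member shared with another family was 7 to 9 bases. The GC content was 52.2% and 57.1% for the miR-124 forms and 31.8% to 35.0% for the members of miR-9 and miR-7.

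The values are reads that the authors multiplied by a factor per library, and they are printed here as deposited. The miRNA reads worked out from the steps between low values numbered 335658, 628808 and 1740914 in the DO2 libraries and from 4681523 to 6024869 in the other 6. A single read was therefore worth from 1.22 to 6.18 in DO2, against 0.556 to 0.682 elsewhere, and DO2 values carry the larger counting error. These reads are fewer, by a factor that differs between libraries, than the miRNA totals that the study lists, and the reason was not tested. The sums of all values differed as well, between 2029412 and 2118834 for DO2, between 3269840 and 3984844 for DO4, and between 2718921 and 3420135 for DO8, so that members were also compared after scaling to equal totals. The make-up of the libraries moved with the group too. The miRNA reads worked out here were 3.45%, 6.34% and 15.8% of the clean reads in DO2_1, DO2_2 and DO2_3, and 44.4% to 52.4% in the other 6. Aja-miR-6240-5p, whose sequence is known from ribosomal RNA of other animals, was 32324, 16268 and 4314 in DO2_1, DO2_2 and DO2_3, against 47.3 to 119 in the other 6. The part of this shift in any difference of the members from DO2, ratios included, was not tested. Intervals for single libraries cover counting error only, as they were worked out from the read numbers. No molecular identifiers are described, so PCR copies cannot be told from separate molecules, and the intervals can be too narrow.

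Together, the members took a small part of the miRNA pool. Their sum was 1267, 1884 and 1733 across the DO2 libraries, 1410, 1586 and 1712 across the DO4 libraries, and 1940, 1428 and 1309 across the DO8 libraries, and the 3 ranges overlapped. Per 1000000 of a library's values it was 610, 928 and 818 across the DO2 libraries, 354, 485 and 509 across the DO4 libraries, and 567, 470 and 482 across the DO8 libraries, where all DO2 libraries lay above the other 6. The DO2 totals were the lowest, so dividing by the total raises entries in general in DO2. With equal totals, the median log2 difference between DO2 and DO8 over the 90 tested entries moved from -0.03 to 0.51. The share of all entries that separate in this way was not worked out. By mean value over the 9 libraries, Aja-miR-9-5p stood at place 39 of 475, Aja-miR-7-5p at 42, Aja-miR-9-3p at 43, Aja-miR-124 at 44 and Aja-miR-124-3p at 49. These 5 were listed in all 9 libraries, while Aja-miR-9 stood at place 459.

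Aja-miR-124, the longer form of the neuronal miRNA, was 265.9, 313.1 and 188.6 across the DO2 libraries, 240.4, 230.5 and 244.0 across the DO4 libraries, and 302.8, 336.6 and 221.6 across the DO8 libraries. The groups overlapped, and the DO4 libraries lay within a narrow band. The means were 256 ± 62.8, 238 ± 7.04 and 287 ± 59.1 (SD, n = 3 each). The shorter Aja-miR-124-3p was 142.2, 206.6 and 115.6 across the DO2 libraries, 95.6, 141.1 and 106.0 across the DO4 libraries, and 157.5, 165.4 and 114.7 across the DO8 libraries. It was the lowest of the 5 members in each of the 9 libraries, with means of 155 ± 46.7, 114 ± 23.9 and 146 ± 27.3. In DO2 these forms rested on few reads, 43 to 155 for Aja-miR-124 and 23 to 95 for Aja-miR-124-3p, against 338 to 605.5 and 144.5 to 297.5 in the other libraries.

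Aja-miR-9-5p, the arm from the 5′ side of the miR-9 hairpin, was 237.1, 434.6 and 507.1 across the DO2 libraries, 335.4, 709.0 and 759.6 across the DO4 libraries, and 873.6, 489.7 and 587.9 across the DO8 libraries. DO2 held the lowest library and DO8 the highest, but the groups overlapped in each comparison. The means were 393 ± 139.8 for DO2, 601 ± 232 for DO4 and 650.4 ± 199 for DO8. The opposite arm, Aja-miR-9-3p, was 361.8, 451.8 and 306.7 across the DO2 libraries, 223.6, 269.0 and 362.6 across the DO4 libraries, and 343.8, 216.8 and 206.2 across the DO8 libraries. Its means ran the other way, at 373 ± 73.3, 285 ± 70.9 and 256 ± 76.6, again with overlapping groups. None of the values of Aja-miR-9-5p was a whole number of reads. Those of Aja-miR-9-3p were whole in 6 of 9 libraries, and those of each miR-124 form in 4. Reads divided between entries would look like this. How the authors divided reads is not known here, and its part in these levels and in the ratio of the arms was not tested.

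Aja-miR-9, the form of the 3p arm that starts 1 base earlier, was nearly absent from the tables. It was listed at 0.844 in DO4_3 and at 1.20 in DO8_1, which are 1.33 and 2 reads. It was listed at 0 in the other 7 libraries, where 3 reads would have been worth from 3.65 to 18.6 at DO2, 1.98 and 2.05 in DO4_1 and DO4_2, and 1.67 and 1.74 in DO8_2 and DO8_3. A level such as that in DO8_1 was thus not detectable in any DO2 library, and no difference can be read from these zeros.

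Aja-miR-7-5p, known from neurosecretory cells of other animals, was 259.8, 477.7 and 614.6 across the DO2 libraries, 515.2, 236.6 and 239.3 across the DO4 libraries, and 261.3, 219.6 and 178.9 across the DO8 libraries. DO4_1 reached the upper DO2 values, and the lowest DO2 library was level with the highest DO8 library. The means were 450.7 ± 179, 330 ± 160 and 219.9 ± 41.2. Its values were whole reads in 9 of 9 libraries (within 0.02 of a read), from 42 to 505 reads in DO2 and 308 to 779 in the others.

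**Figure D1:**
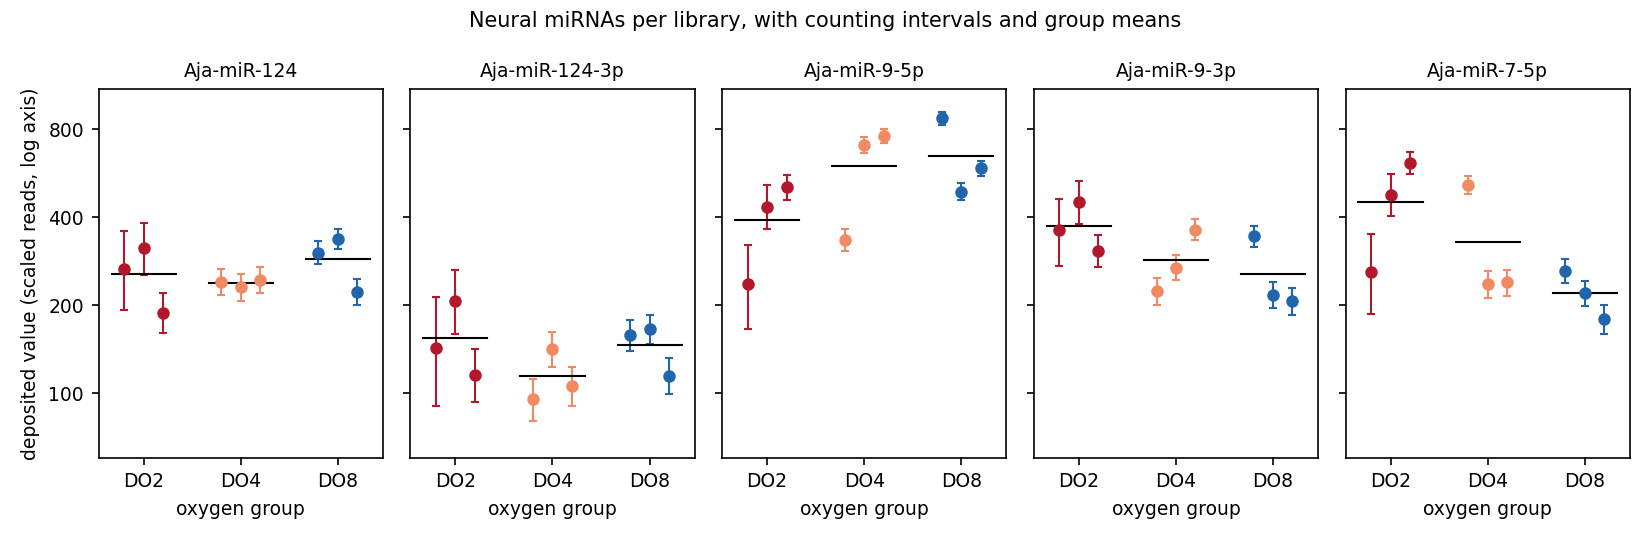
Deposited values (scaled reads, log axis) of the 5 members listed in all 9 libraries, with 1 point per library in the order of the replicate numbers, bars for the 95% Poisson counting interval and black lines for the group means. Aja-miR-9-5p is highest in all 3 DO8 libraries, Aja-miR-7-5p has its highest value, 614.6, in DO2_3, and the groups overlap for each member.

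The order of the members changed with the group. In DO8, Aja-miR-9-5p led in all 3 libraries, followed by Aja-miR-124, Aja-miR-9-3p and Aja-miR-7-5p, whose ranges overlapped, and Aja-miR-124-3p came last. In DO2, Aja-miR-7-5p led by mean value and in 2 libraries, with Aja-miR-9-3p first in DO2_1, and the leading 3 members overlapped. In DO4, Aja-miR-9-5p led in DO4_2 and DO4_3 and Aja-miR-7-5p in DO4_1. The highest of the 5 members exceeded the lowest by 2.31 to 7.16 times within a library.

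The comparison of DO2 with DO8 asks which miRNAs differ between severe hypoxia and the control. None of the 5 tested members passed the test (limma on log2(value + 1), adjusted p under 0.05 over 90 entries), against 28 of 90 entries, or 31.1%, of which 21 were higher and 7 lower in DO2. Without DO8_1, 18 entries passed. On the log2 scale, Aja-miR-7-5p was 0.96 higher in DO2 (SE 0.45, 95% interval -0.04 to 1.96, unadjusted p = 0.0579, adjusted p = 0.130 in limma). Aja-miR-9-5p was at -0.75 (SE 0.44, interval -1.73 to 0.22, adjusted p = 0.223) and Aja-miR-9-3p at 0.57 (SE 0.36, interval -0.24 to 1.37, adjusted p = 0.266). The arms of miR-9 therefore pointed in opposite directions, each within its error. Aja-miR-124 differed by -0.17 (interval -0.94 to 0.59, adjusted p = 0.716) and Aja-miR-124-3p by 0.06 (interval -0.83 to 0.95, adjusted p = 0.891). By the size of the difference these forms were the 10th and the 3rd smallest of 90, while the other members ranked 33 to 45. The intervals of the miR-124 forms still reach almost 1 on the log2 scale, so with 3 pools a group a change of nearly that size lies within the error. The members' median difference was 0.06, beside -0.03 over all 90 entries, and no member had groups without overlap (0 of 5), against 52.2% of all entries.

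In DO4 against DO8, which asks the same of mild hypoxia, the members differed by -0.25 (Aja-miR-124), -0.35 (Aja-miR-124-3p), 0.50 (Aja-miR-7-5p), 0.17 (Aja-miR-9-3p) and -0.16 (Aja-miR-9-5p) on the log2 scale, with adjusted p of 0.802 to 0.954 in limma. No member and 0% of the 90 entries passed, with 0 members and 1 entry at an unadjusted p under 0.05. Groups without overlap were found for 0 of 5 members and 7.78% of entries.

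In DO2 against DO4, severe against mild hypoxia, the differences were 0.07 for Aja-miR-124, 0.41 for Aja-miR-124-3p, 0.46 for Aja-miR-7-5p, 0.40 for Aja-miR-9-3p and -0.60 for Aja-miR-9-5p (adjusted p from 0.292 to 0.856, limma). Again 0 of 5 members passed, against 31.1% of entries (22 higher and 6 lower in DO2), and 0 had groups without overlap, against 36.7%. Aja-miR-124 had the 2nd smallest difference of the 90 entries in this comparison. Since the comparisons share libraries, their values are not independent of each other.

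**Figure D2:**
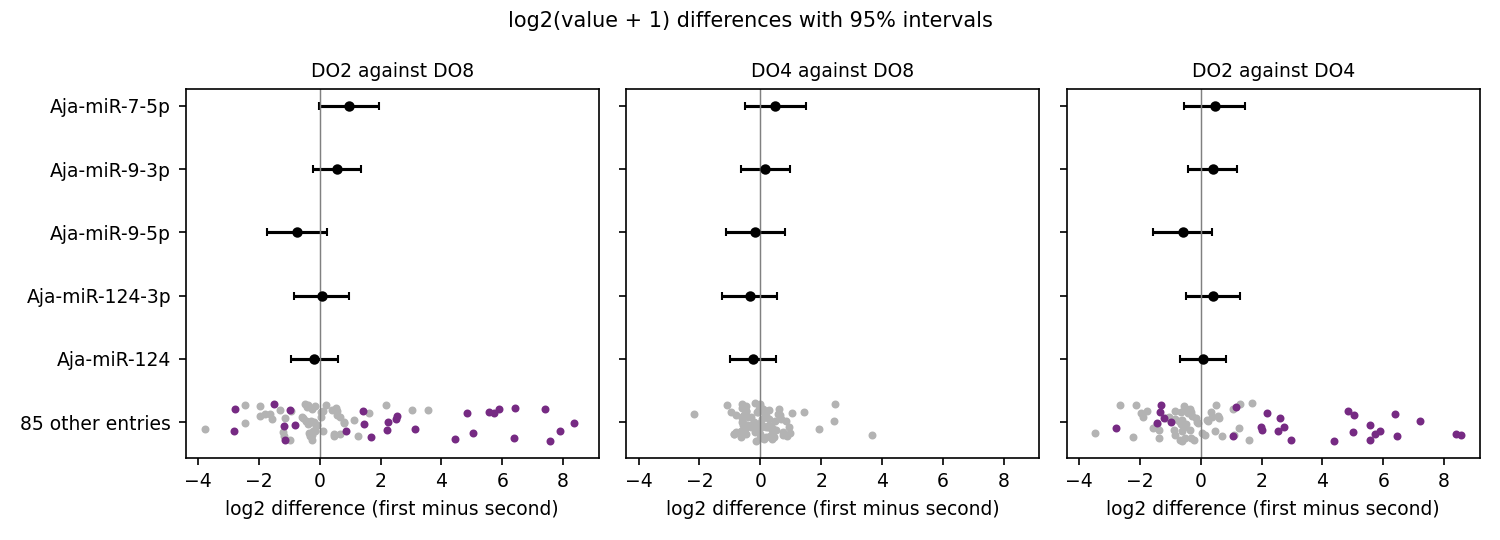
Differences in log2(value + 1), first group minus second, for the 5 tested members (black points with 95% limma intervals) and the 85 other tested entries (dots spread vertically for legibility, purple where the adjusted p is under 0.05). Each member's interval includes 0 in all 3 comparisons, and the point farthest from 0 is Aja-miR-7-5p in DO2 against DO8, at 0.96.

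These calls rest on the deposited scale. After scaling to equal library totals, the median of all entries in DO2 against DO8 moved to 0.51, the split of calls became 30 higher and 4 lower, and Aja-miR-7-5p (1.51, adjusted p = 0.0192 in limma) and Aja-miR-9-3p (1.12, adjusted p = 0.0417) passed. In DO2 against DO4 the median moved to 0.62 and the split to 36 higher and 1 lower, and Aja-miR-7-5p (1.22, adjusted p = 0.0405), Aja-miR-9-3p (1.16, adjusted p = 0.0306) and Aja-miR-124-3p (1.17, adjusted p = 0.0440) passed. Taking instead the reads per clean read of each library, which is the formula that the study's methods describe, moved the medians to -1.52 and -1.46 with 13 entries higher and 52 lower in DO2 than in DO8. Both miR-124 forms and both miR-9 arms were then lower in DO2 than in DO8, at -2.24 (Aja-miR-124), -1.92 (Aja-miR-124-3p), -2.82 (Aja-miR-9-5p) and -1.55 (Aja-miR-9-3p), with adjusted p of 0.00206 to 0.0264. Aja-miR-7-5p turned as well, to -1.14 against DO8 (adjusted p = 0.145 in limma) and -1.47 against DO4 (adjusted p = 0.0667), and Aja-miR-9-5p turned to 0.17 in DO2 against DO4 with equal totals (adjusted p = 0.794). Of the members' differences between DO2 and the other groups, only that of Aja-miR-9-5p from DO8 kept its sign on all scales tried, from -2.82 to -0.20, and the direction of the others cannot be stated without naming the scale.

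Ratios within a library do not depend on its factor. The ratio of Aja-miR-9-5p to Aja-miR-9-3p was 0.655, 0.962 and 1.65 across the DO2 libraries, 1.5005, 2.64 and 2.09 across the DO4 libraries, and 2.54, 2.26 and 2.85 across the DO8 libraries. All DO2 libraries lay below all DO8 libraries, and DO4 overlapped with both. The same separation of DO2 from DO8 was found for the other ratios tested, except that of miR-124 to miR-9. Among single entries, the deposited values of DO2 and DO8 did not overlap for 52.2%, in either direction. As a share of the reads of both arms, the 5p arm held 39.6% (95% exact binomial interval 29.7% to 50.1%), 49.0% (43.0% to 55.2%) and 62.3% (58.5% to 66.0%) in DO2. In DO4 it held 60.01%, 72.5% and 67.7%, and in DO8 71.8%, 69.3% and 74.0%, with intervals no wider than those of DO2_3. The 5p arm was thus clearly the more abundant one in DO4 and DO8, while in DO2 it ranged from the lesser arm to the larger. The geometric mean ratio went from DO2 (1.01) over DO4 (2.02) to DO8 (2.54), a log2 difference of -1.32 between DO2 and DO8, with an SD of 0.67, 0.41 and 0.17 within the groups. An exact permutation test over the 3 groups gave p = 0.0464, which became 0.232 after Benjamini-Hochberg adjustment over the 5 ratios tested, and the two-sided exact test of DO2 against DO8 gave p = 0.1, the smallest value that 3 against 3 libraries allow. The share in DO2 went with depth and make-up, being lowest in the library with 335658 reads and the highest Aja-miR-6240-5p (32324) and highest in that with 1740914 reads and the lowest (4314), and their part in the ratio was not tested.

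The form ratio of miR-124, Aja-miR-124 over the 2 bases shorter Aja-miR-124-3p, spread less over the libraries. It was 1.87, 1.52 and 1.63 across the DO2 libraries, 2.52, 1.63 and 2.30 across the DO4 libraries, and 1.92, 2.04 and 1.93 across the DO8 libraries, so that the longer form led in each library and held 60.2% to 71.6% of the reads. The geometric means were 1.67, 2.11 and 1.96 (exact permutation p = 0.189 over the 3 groups, adjusted p = 0.304). Without DO4_2 the 3-group p was 0.00714 (adjusted p = 0.0357, exact permutation), and over the settings that left out a library the adjusted p ran from 0.0357 to 0.496. The difference between DO2 and DO8 was -0.24 on the log2 scale. Since the shorter form is contained in the longer and the authors allowed up to 2 mismatches, the split between them depends on how reads were assigned.

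**Figure D3:**
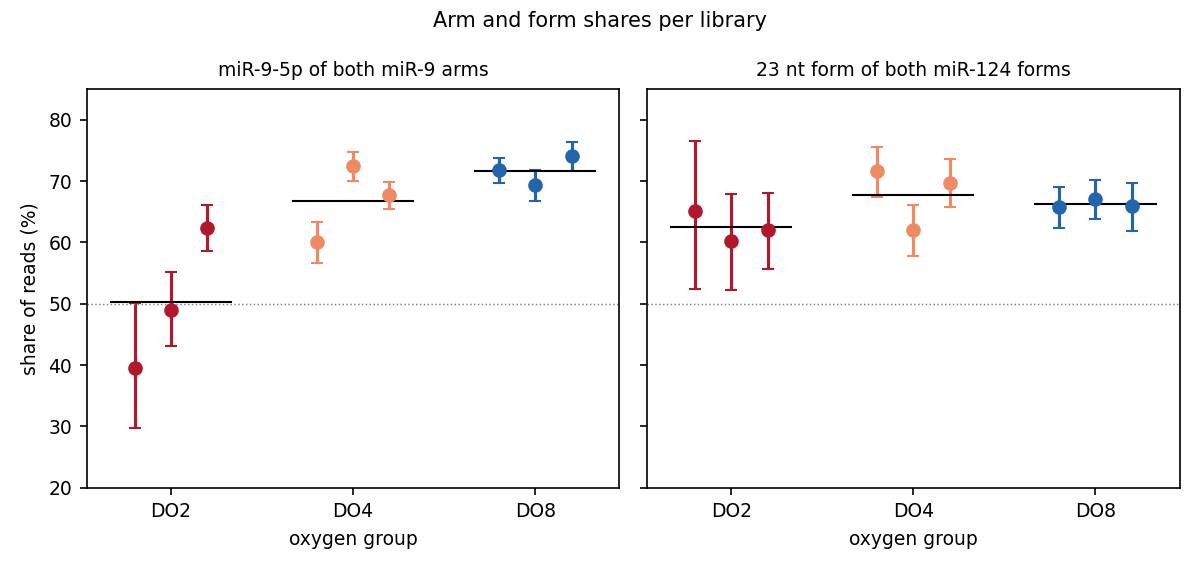
Share of reads (%) held by Aja-miR-9-5p among both arms of miR-9 (left) and by the 23 nt form among both forms of miR-124 (right), with 1 point per library, 95% exact binomial intervals, black lines for group means and a dotted line at 50%. The 5p arm runs from 39.6% in DO2_1 to 74.0% in DO8_3, while the longer miR-124 form stays between 60.2% and 71.6%; the axis starts at 20%.

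Between families, the reads of miR-124 over those of miR-9 had geometric means of 0.531, 0.414 and 0.484 for DO2, DO4 and DO8 (exact permutation p = 0.621, adjusted p = 0.621). Of the 3 family ratios it differed least between the group means. The ratio of miR-124 to miR-7 was 0.946, 1.14 and 1.96, with each DO8 library above each library of the other groups. That of miR-9 to miR-7 was 1.78, 2.76 and 4.05, with each DO2 library (at most 2.31) below each DO8 library (at least 3.22). Neither passed the exact permutation test over the groups (p = 0.204 and 0.243, adjusted p = 0.304 for both). Within DO2 alone, the ratio of miR-124 to miR-7 ran from 0.495 to 1.57.

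The spread of a member against the other miRNAs was described by its log2 level relative to the median entry of the same library, over the 62 entries listed in all 9 libraries. Aja-miR-9-3p had the smallest SD over the 9 libraries of all 62 (0.40), Aja-miR-124-3p the 3rd smallest (0.46) and Aja-miR-124 the 8th (0.59). Aja-miR-7-5p (0.79) ranked 25 and Aja-miR-9-5p (0.98) ranked 42, around the median SD of 0.89 with quartiles of 0.71 and 1.06. The arms of the same hairpin thus stood far apart in spread. Counting error alone would give an SD of 0.099 to 0.152 for these members, less than observed. For Aja-miR-124 the relative level was -2.21, -2.53 and -1.78 across the DO2 libraries, -1.06, -1.63 and -1.28 across the DO4 libraries, and -1.35, -0.57 and -1.54 across the DO8 libraries, so that each DO2 library lay below the other 6. The share of the 62 entries that separate in this way was not worked out. The range of group means of Aja-miR-124, 1.02, was the 17th smallest, beside a median range of 1.39. The deposited values of Aja-miR-124 overlapped between the groups. For Aja-miR-9-5p the relative level was -2.38, -2.05 and -0.35 in DO2, against -0.58 to 0.36 in the other 6 libraries, which overlapped with DO2.

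The median entry itself moved, from 8.97 on the log2 scale in DO8_2 to 10.82 in DO2_2, and the ranks depend on it. Measured by deposited values alone, Aja-miR-124 had the smallest SD of the 62 entries (0.27), Aja-miR-124-3p ranked 7 (0.35), Aja-miR-9-3p 13 (0.39), Aja-miR-9-5p 32 (0.60) and Aja-miR-7-5p 35 (0.63). With median-ratio factors the miR-124 forms ranked 1 and 3, Aja-miR-9-3p 7, Aja-miR-9-5p 32 and Aja-miR-7-5p 36. Against the library total, however, the ranks were 18 for Aja-miR-124, 22 for Aja-miR-9-5p, 26 for Aja-miR-124-3p, 31 for Aja-miR-9-3p and 40 for Aja-miR-7-5p. The ranks of both miR-124 forms and Aja-miR-9-3p thus ran from 1 to 13 under 4 of the 5 references tried, and from 18 to 31 against the library total. Those 4 are not independent of each other. The median-ratio factors ran only from -0.22 to 0.07 on the log2 scale, so they differ little from using no reference. Both of these were chosen after the data were seen, and reads per clean read were not tried as a reference.

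**Figure D4:**
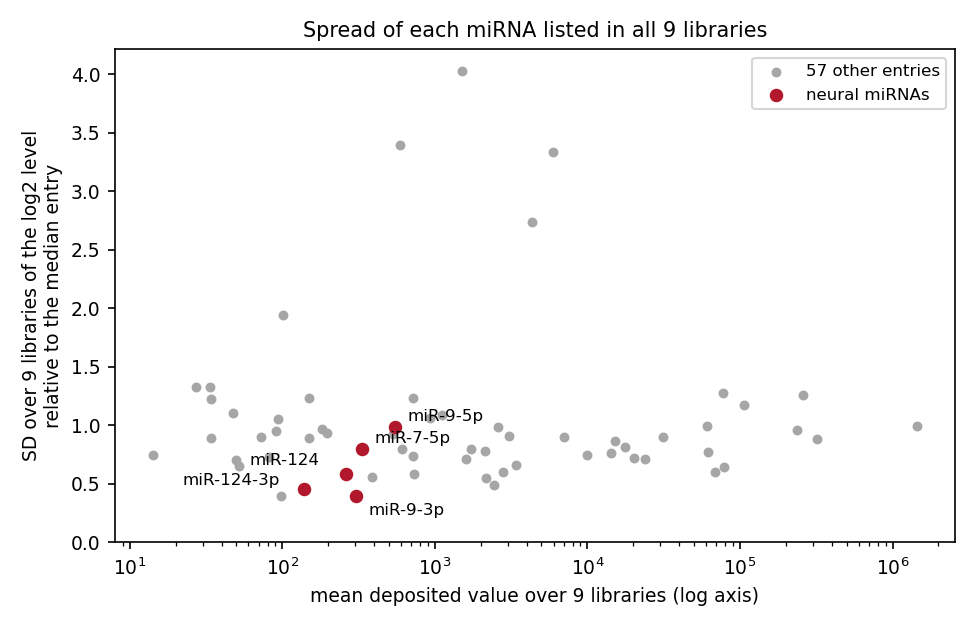
SD over 9 libraries of the log2 level relative to the median entry, against the mean deposited value (log axis), for the 62 entries listed in all 9 libraries (members red, 57 others grey). Aja-miR-9-3p, at 0.40, and the miR-124 forms, at 0.46 and 0.59, lie at the lower edge, and Aja-miR-9-5p, at 0.98, lies above the median of 0.89.

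After scaling to equal totals, the miR-124 forms varied together over the 9 libraries (Pearson r = 0.95, Spearman rho = 0.93), the shorter being part of the longer. Aja-miR-124-3p and Aja-miR-9-3p gave r = 0.81 and rho = 0.73, while the arms of miR-9 gave r = 0.29 and rho = 0.27. Aja-miR-7-5p and Aja-miR-9-5p gave r = -0.07. These values are a description over 9 libraries that share group and depth differences. Searched in the same way, the entries outside the family most like Aja-miR-124 were Aja-miR-133 (r = 0.87), its family being known from vertebrate muscle, Aja-miR-193-3p (r = 0.87) and Aja-miR-2006-3p (r = 0.86). On the deposited scale these fell to 0.20, 0.46 and 0.66. Without the 2 libraries farthest from the median of Aja-miR-124 they were 0.74, 0.91 and 0.74. For Aja-miR-7-5p they were Aja-miR-278-3p (r = 0.86), Aja-miR-137 (r = 0.86, rho = 0.42) and Aja-miR-153-3p (r = 0.80, rho = 0.42), of which the last 2 are themselves neural miRNAs of vertebrates. On the deposited scale these were 0.72, 0.69 and 0.56. Without the 2 libraries farthest from the median of Aja-miR-7-5p they became 0.53, 0.34 and 0.33, so that they rest largely on those libraries. For Aja-miR-9-5p the nearest were Aja-miR-31a-5p (r = 0.68, rho = 0.0), Aja-miR-2008-5p (r = 0.66, rho = 0.60) and Aja-miR-34 (r = 0.64, rho = 0.10). On the deposited scale these were 0.60, 0.73 and 0.57. Without the 2 libraries farthest from the median of Aja-miR-9-5p they became 0.18, -0.06 and -0.33.

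Of 13 other miRNA families known from neural or sensory cells 4 were found, with 6 entries, of which 4 were tested. Of these 4, 3 passed as higher in DO2 than in DO8 and again than in DO4 (limma). Over all 90 entries, 21 and 22 were called higher, and 31.1% were called in either direction in each comparison. Aja-miR-137, which acts in neuronal maturation in mammals, was 1202 ± 499 at DO2, 522 ± 149 at DO4 and 427 ± 48.6 at DO8 (log2 difference from DO8 1.41, adjusted p = 0.0159 in limma). Aja-miR-153-3p, a brain miRNA of vertebrates, was 178 ± 106, 38.9 ± 6.73 and 57.1 ± 2.74 (adjusted p = 0.0453 against DO8 and 0.00907 against DO4). Aja-miR-153-1-p5 had a mean of 23.5 ± 17.4 in DO2 and 3.64 ± 1.34 in DO8 and was listed at 0 in all DO4 libraries (adjusted p = 0.0221 and 0.000396 in limma). The smallest value listed for any entry was 12.4 in DO2_1 and 6.45 in DO2_2, so a level like the DO8 mean lay below what these libraries listed. The 4th, Aja-miR-96-5p, known from sensory cells, had means of 38.7, 73.0 and 38.0 and did not pass. The median log2 difference of these 4 was 1.44 in DO2 against DO8, beside -0.03 over all entries, and 1.59 in DO2 against DO4, beside -0.14. Whether the members differ from this list was not tested.

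The leading miRNAs known from the other tissues of the wall were far more abundant than the members. By mean value over the libraries, Aja-miR-1a-3p was at 78100, Aja-miR-200-3p at 77755 and Aja-miR-133-3p at 7029. Others of these tissues were not, with 196 for Aja-miR-34, 81.6 for Aja-miR-200, 49.9 for Aja-miR-133 and 27.3 for Aja-miR-1. The epithelial and ciliary sum is thus almost entirely Aja-miR-200-3p. The muscle list summed to between 77416 and 129224 at DO2, between 73264 and 95945 at DO4 and between 54758 and 69823 at DO8, led by Aja-miR-1a-3p and Aja-miR-133-3p, and 2 of its 5 tested entries (Aja-miR-1 and Aja-miR-1a-3p) rose in DO2 against DO8 and 2 (Aja-miR-1 and Aja-miR-133) against DO4, beside 31.1% of all entries called in either direction in each comparison. Aja-miR-133-3p (mean 5302 in DO2 and 7380 in DO8) and Aja-miR-133a-5p (48.3 and 72.7) had lower means in DO2 and did not pass. The epithelial and ciliary list, led by Aja-miR-200-3p and Aja-miR-34, summed to between 33579 and 39514 at DO2, between 55941 and 123139 at DO4 and between 79280 and 122075 at DO8, and 1 of 3 tested entries, Aja-miR-200-3p, fell in DO2 in both comparisons. Aja-miR-34 (mean 143.9 in DO2 and 259 in DO8) and Aja-miR-200 (119 and 62.9) did not pass and lay on opposite sides. The labelled tissue thus showed miRNAs known from muscle and epithelium at high levels. The secretory miRNA Aja-miR-375-3p lay between 27935 and 38233 at DO2, between 9374 and 21207 at DO4 and between 18282 and 33278 at DO8, and rose in DO2 against DO4. MiRNAs of vertebrate blood and liver, led by Aja-miR-122-5p and Aja-miR-451-5p, summed to no more than 204 in any library, and 0 of the 1 tested entry passed. The part of the changes in these lists in the members' values was not tested.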

How the data were processed

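Small RNA of 9 respiratory-tree pools (3 each of DO2, DO4 and DO8) was analysed. According to the study's methods, reads of gel-selected small RNA were trimmed, cleared of other RNA classes, aligned to animal miRNAs with up to 2 mismatches, counted and scaled. The labels' extraction text describes single trees and an mRNA preparation instead, and the methods were followed. The processing notes name CASAVA 1.5. The deposited values are a signal, reads times a factor per library made by the authors. Its source is not given in the sources used here: a library's values sum to at least 2029412, more than a division by clean reads scaled to 1000000 could give. No genome was used, and no positions are given.

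Members and lists were chosen with earlier results of these data known. The 90 of 475 entries found above 0 throughout at least 1 group were tested on log2(value + 1) with limma 3.58.1 in R 4.3.3, with 1 mean per group over the 9 libraries, trended variances and Benjamini-Hochberg adjustment (threshold 0.05), and the step was tested on simulated data. The values are not counts, and 65.5% to 81.1% per library were whole reads (within 0.02 of a read), so no count test was used. A read was taken as 6 times the largest step of which low values were whole multiples. Names of predicted entries end in a number taken as their read number, and this was compared for entries listed in 1 library only. In DO2 it matched for 5 of 5 entries in DO2_1, 49 of 58 in DO2_2 and 107 of 145 in DO2_3. In DO4 it matched for 15 of 24 in DO4_1, 0 of 1 in DO4_2 and 8 of 10 in DO4_3. In DO8_2 it matched for 1 of 1, and DO8_1 and DO8_3 had no such entry. For each ratio, groups were compared with exact permutation tests (scipy 1.17.1, numpy 2.4.6 and pandas 2.3.3 in Python 3.11.15). Over the 3 groups the statistic was the between-group sum of squares, in its upper tail. Pairs of groups were tested two-sided on the difference of means. Parts of reads were rounded to whole reads for binomial intervals, and the duplex was computed with ViennaRNA 2.7.2. Figures were drawn with matplotlib 3.10.9. The replicate is the pool, and p-values measure the spread among pools of 1 tank regime, not among animals. For named miRNAs, all members, the 3 entries outside the family with the highest r for the most abundant member of each family, and, of the other neural list, those that passed and the most abundant 3 were given. Of the other lists, the 2 most abundant entries were given. Aja-miR-6240-5p and the further muscle and epithelial entries were named after their values were seen. The clean reads per library, used for 1 scaling and for the share of miRNA reads, are totals the study gives. Alternatives in filter, scaling, pseudocount, variance model, samples, replicate block and left-out libraries were run.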

Additional observations from a re-analysis of the deposited data

How the results depend on the processing

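Of 300 alternative values of the members' differences, 19 turned their sign. Other scalings gave 12 of these, out of 45 values. Leaving out a library gave 7 out of 135, and those 7 lay between -0.17 and 0.22 with no call. The other 120 kept their sign, but most of their settings (filter, groups fitted, block, floor, variance model) cannot move a member's estimate. Leaving out a library of the group not compared cannot move it either, so the 281 kept signs are no measure of stability. A member passed the threshold only under 2 scalings. With reads per clean reads, DO2 against DO8 gave -2.24 for Aja-miR-124, -1.92 for Aja-miR-124-3p, -2.82 for Aja-miR-9-5p and -1.55 for Aja-miR-9-3p, and DO2 against DO4 gave -1.84, -1.43, -2.50 and -1.55, with the sign turned for Aja-miR-124 (DO2 against DO4 only), Aja-miR-124-3p and Aja-miR-9-3p. Aja-miR-7-5p turned without passing, to -1.14 and -1.47. With equal totals, 2 and 3 members passed, as given above. The reads per clean reads called 65 entries in DO2 against DO8 (13 higher) and 63 in DO2 against DO4 (13 higher), in place of 28 each. In DO4 against DO8, with 0 called, 2 were called in a fit of only those groups and 1 with 0.1 added. Leaving out a library gave 18 to 32 calls in DO2 against DO8 (18 without DO8_1), 0 to 2 in DO4 against DO8 (2 without DO2_1) and 22 to 33 in DO2 against DO4. No member passed in the fits that left out a library. The arm ratio's log2 difference between DO2 and DO8 ran from -1.68 to -1.01 (adjusted p from 0.0536 to 0.460, exact permutation), and the form ratio's from -0.32 to -0.17, passing only without DO4_2. The cause was not tested.

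No pairing of the pools by replicate number was seen. Deviations of same-numbered libraries correlated at -0.37 to 0.23 (median 0.03), and those of differently numbered libraries at -0.47 to 0.43 (median 0.05). With 3 libraries a group, whose deviations constrain each other, this cannot exclude a pairing. With the replicate block, 26, 0 and 27 entries and 0 members were called (limma), and the arm ratio, permuted within replicate numbers, gave an exact permutation p of 0.0556, where 0.0278 is the smallest possible. References by median-ratio factors and without a reference were chosen after seeing the data. Depth limits DO2 most, where Aja-miR-124-3p rested on as few as 23 reads and 1 read was worth up to 6.18.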
